A study of Mus musculus with 2 samples.

Results

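Erythroblasts are the nucleated cells from which red blood cells form, and 10 of their genes of iron handling were followed here in the mouse. They were Tfrc, Tfr2, Steap3 and Slc11a2 for uptake, Fth1, Ftl1 and Ncoa4 for storage and its release, Ireb2 and Aco1 for regulation, and Slc40a1 for export. They were chosen by name, and all 10 were found among 43346 gene rows, with 47 of 103639 transcript rows. Total RNA had been sequenced in 2 libraries of 1 group, and no second condition, treatment or genotype was present. The labels describe both as primary adult erythroblasts of the strain C57BL/6J, from males of 5 to 6 weeks, with spike-ins and an RNA input of 1 ng. A linked protocol is titled for isolating progenitors from bone marrow. The labels number them as biological replicates 1 and 2, list 1 donor entry for both, and do not say whether the animals were separate, so the SD given here covers the spread between these libraries, which may be technical. Values are TPM, a transcript abundance corrected for length and scaled to a fixed total per library, with the mean ± SD of n = 2 libraries.

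Erythroblasts take up iron mainly as transferrin. The transferrin receptor carries it into endosomes, a reductase and a divalent metal transporter move the iron into the cytosol, and mitochondria use it to make haem. Surplus iron is stored in ferritin, freed when the receptor NCOA4 delivers ferritin to lysosomes, and exported by ferroportin. In iron-poor cells the iron regulatory proteins bind short hairpins called iron-responsive elements (IREs). Bound in a 5′ UTR, they block translation, and bound in the 3′ UTR of the transferrin receptor mRNA, they protect it from decay.

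The hairpins are shown because they divide the transcript forms described here. Transcripts of GENCODE M21 (GRCm38/mm10) were searched on the sense strand for a bulged C, 5 stem bases, the loop CAGTGN and 5 bases pairing with the stem, G-U pairs allowed. Capitals mark the bulged C and the loop, and each run includes 6 bases on either side for the lower stem. The windows are printed 5′ to 3′ in the sense of the transcript. The first 4 lie in the last exon of Tfrc (3′ UTR, + strand), at chr16:32631219-32631247, chr16:32631598-32631626, chr16:32631663-32631691 and chr16:32631710-32631738, in that order.
Tfrc loop 1: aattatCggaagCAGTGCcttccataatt
Tfrc loop 2: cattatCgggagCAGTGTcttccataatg
Tfrc loop 3: ctatatCggagaCAGTGAtctccatatgt
Tfrc loop 4: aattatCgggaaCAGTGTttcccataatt
The next 3 lie in 5′ UTRs, of Fth1 at chr19:9982732-9982760 (+ strand), Ftl1 at chr7:45459779-45459807 (− strand) and Slc40a1 at chr1:45925465-45925493 (− strand).
Fth1: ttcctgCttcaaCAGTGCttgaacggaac
Ftl1: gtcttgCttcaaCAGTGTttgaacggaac
Slc40a1: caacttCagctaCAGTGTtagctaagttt
The last lies in the 3′ UTR of Slc11a2 at chr15:100395152-100395181 (− strand) and was found only when 1 unpaired base was allowed in the 3′ arm or 4 of 5 pairs were accepted.
Slc11a2: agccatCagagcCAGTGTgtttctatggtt

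By the 5-pair rule, 4 of the 10 genes held the motif, and 5 held it under either looser rule. Among 58797 coding transcripts of all genes, the 5-pair rule matched 0.102% in the 5′ UTR and 0.344% in the 3′ UTR. Allowing the unpaired base raised these shares to 0.224% and 0.923%, and accepting 4 pairs to 0.575% and 2.30%. By gene, of 21901 coding genes, the 5-pair rule matched 0.1415% in the 5′ UTR, 0.589% in the 3′ UTR and 0.639% in the coding sequence. In the same order, the unpaired base gave 0.379%, 1.63% and 2.13% of genes, and 4 pairs gave 0.950%, 3.99% and 6.33%. The motif was not matched in Tfr2, Steap3, Ncoa4, Ireb2 or Aco1 under these rules. Of the genes listed later as having a known IRE, Cdc42bpa and Pfn2 were not matched under any of the rules. Cdc14a was matched only when 4 pairs were accepted. A missing match therefore does not show that a gene has no IRE. A match is a description of letters, not a measured binding site. The Fth1 row of the deposited tables is 866 bases long and that of M21 929, so the place of its loop in the deposited row was not checked.

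The libraries held 80806663 and 117032607 expected counts, of which nuclear protein-coding genes took 5.44% and 5.82%. The 10 genes held 34153 and 55191 counts, or 0.529% and 0.537% of the nuclear coding TPM. All 16 erythroid markers had a TPM of at least 1 in both libraries, where 14.5% of 21461 nuclear protein-coding genes did. All 13 neutrophil-lineage markers did so too, with a summed TPM of 2098 and 2415, against 21274 and 22990 for the erythroid markers. The erythroid sum came mainly from the globin genes, such as Hbb-bs at 6817 and 7804 TPM. List medians were much closer, at 67.6 and 71.8 TPM for the erythroid and 53.4 and 56.35 for the neutrophil-lineage markers. Of 16 macrophage markers, 8 were detected, with a summed TPM of 21.9 and 22.1 over the list. Of 6 monocyte markers, 3 were detected (sum 67.7 and 85.2). At least 10 expected counts in both libraries were found for 15 and 5 of these, against 42.8% of nuclear protein-coding genes. Of 6 liver genes, Alb, Apoa1, Ttr, Hamp and Serpina1a were at 0 in both libraries and only Trf, which encodes transferrin itself, was detected, at 6.79 and 10.5 TPM. In RNA from many cells, fewer cells of a type and less RNA per cell cannot be told apart.

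Of the 10 genes, 5 reached a TPM of 1 in both libraries, namely Tfrc, Ftl1, Fth1, Ncoa4 and Slc40a1, where 14.5% of 21461 nuclear protein-coding genes did. With at least 10 expected counts in both libraries as the rule, all 10 passed, against 42.8% of those genes. Because coding genes took only 4.68% and 5.10% of the deposited TPM, levels were also rescaled to sum over nuclear coding genes to what TPM sums to over all rows, and then all 10 were at or above 1, as were 42.9% of those genes. The genes fell into 2 ranges, from 29.1 to 93.5 mean TPM for the receptor, both ferritin chains and Ncoa4, and from 0.365 to 0.825 for 5 genes, with Slc40a1 between them at 5.52.

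**Figure D1:**
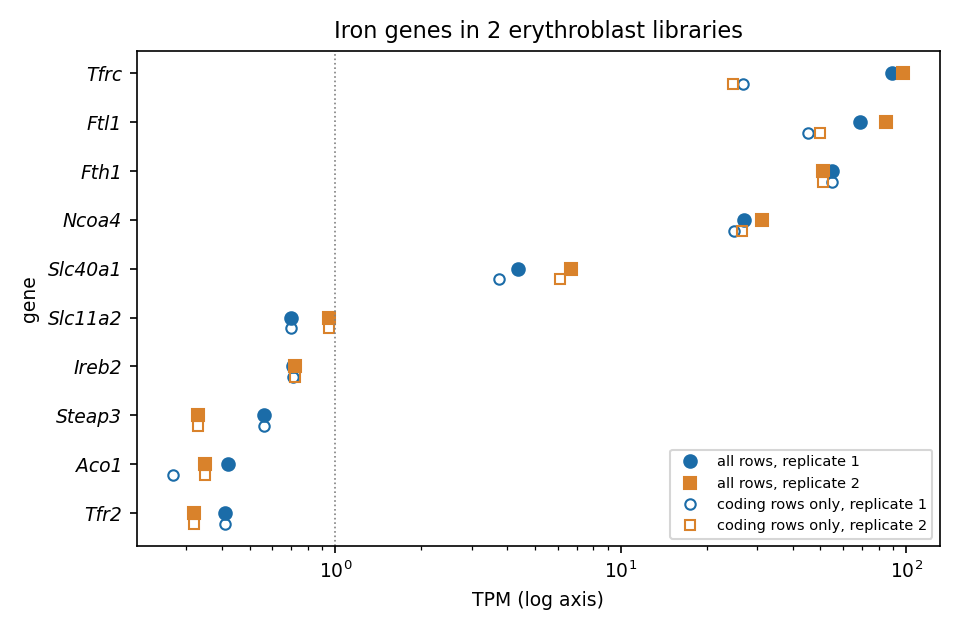
TPM of the 10 genes on a log axis, with replicate 1 as circles and replicate 2 as squares. Filled symbols sum all transcript rows of a gene and open symbols only rows annotated as protein coding, and the dotted line marks a TPM of 1. Tfrc leads with all rows at 89.4 and 97.5 and drops to 26.7 and 24.7 with coding rows, below both ferritin chains.

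Tfrc (chr16:32608920-32632794, + strand), the transferrin receptor, was measured at 89.4 TPM in replicate 1 and 97.5 in replicate 2 (93.5 ± 5.76), from 18542 and 28914 counts. It ranked 28 among 21461 nuclear coding genes by mean TPM. Both libraries placed it first of the 10 genes, 1.22-fold above Ftl1 in mean TPM, and the values did not overlap. This place rested on rows annotated as retained introns: with coding rows alone, Tfrc stood at 26.7 and 24.7 TPM (25.7 ± 1.40). It then lay below Fth1 and Ftl1, and its values overlapped those of Ncoa4, at 25.0 and 26.5.

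Tfr2 (chr5:137569840-137587481, + strand), a receptor relative that senses transferrin and associates with the erythropoietin receptor, was at 0.41 and 0.32 TPM from 83 and 93 counts. By the mean it was the lowest of the 10. Tfrc exceeded it 218-fold and 305-fold, and with coding rows alone 65.1-fold and 77.2-fold.

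Steap3 (chr1:120190757-120272705, − strand), the endosomal reductase that turns ferric into ferrous iron, was at 0.56 and 0.33 TPM (198 and 177 counts). Slc11a2 (chr15:100387898-100425072, − strand), which encodes the transporter DMT1 that moves ferrous iron out of the endosome, was at 0.70 and 0.95 TPM (146 and 387 counts). Both therefore stood far below the receptor that feeds the same endosome. The receptor exceeded Steap3 160-fold and 296-fold, and Slc11a2 128-fold and 103-fold; with coding rows alone these were 47.7 and 74.9, and 38.1 and 26.0.

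Ftl1 (chr7:45457944-45459884, − strand), the ferritin light chain that aids mineral formation, was at 68.9 and 84.6 TPM (76.7 ± 11.1) and ranked 36. Fth1 (chr19:9980598-9985098, + strand), the heavy chain that oxidises ferrous iron, was at 54.8 and 51.0 TPM (52.9 ± 2.67) and ranked 66. The light chain was higher in both libraries, with no overlap. With rows typed as coding in M21 alone the order turned, with Ftl1 at 45.3 and 49.7 TPM and Fth1 at its single row. All Ftl1 rows other than Ftl1-201 have identifiers that are not in M21 and so no type, and the turn rests on leaving these out, mainly a row of 604 bases at 23.3 and 33.6 TPM. Near copies of ferritin genes drew few reads: Ftl1-ps1, the highest, was at 3.36 and 3.92 TPM, and reads shared with it could be split between the copies. A small RNA gene, Gm22133, and an antisense gene, Gm10252, overlap Ftl1 in M21. No source used here states that strand entered the counting.

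Ncoa4 (chr14:32159865-32179855, + strand), the receptor that takes ferritin to the lysosome, was at 27.0 and 31.2 TPM (29.1 ± 3.00) and ranked 161. The neighbours Fth1 above and Slc40a1 below were clear of it in both libraries, by 1.82-fold and 5.27-fold in mean TPM.

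The 2 regulators were low. Ireb2 (chr9:54863789-54912530, + strand), encoding IRP2, was at 0.71 and 0.72 TPM from 290 and 432 counts. Aco1 (chr4:40143081-40198338, + strand), encoding IRP1, which doubles as a cytosolic aconitase, was at 0.42 and 0.35 TPM from 77 and 135 counts. Ireb2 was above Aco1 in both libraries. Of the Aco1 value in replicate 1, 0.15 TPM came from 5.37 counts on the short row Aco1-202, a non-coding form of 638 bases, and the coding row stood at 0.27 and 0.35.

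Slc40a1 (chr1:45908068-45926523, − strand), encoding ferroportin, the iron exporter, was at 4.37 and 6.67 TPM (5.52 ± 1.63) from 907 and 2304 counts, and ranked 822. In mean TPM it stood 6.69-fold above Slc11a2, the next gene down. Iron-recycling macrophages are also known to express it. The macrophage markers summed to 21.9 and 22.1 TPM, from 0.03 for Marco to 5.12 for Vcam1 in the mean, and none of the 16 was at 0 in both libraries. Their part in the Slc40a1 level was not tested.

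In the full order of mean TPM, 3 neighbouring pairs overlapped in their library values: Slc11a2 with Ireb2, Steap3 with Aco1, and Aco1 with Tfr2. The other 6 neighbouring pairs did not. With 2 libraries of 1 group, no test between genes or conditions was made.

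The libraries were set against each other after scaling of rounded counts by TMM (trimmed mean of M-values). Of the 10 genes, 3 were over 1.5 times apart, where 36.5% of 10012 expressed genes were. Slc11a2 was 1.69-fold and Slc40a1 1.62-fold higher in replicate 2, and Steap3 stood at 0.575 of its replicate 1 value. The log2 ratios were 0.75, 0.70 and −0.80. Among genes of like mean count, the median absolute log2 ratio was 0.42 for Slc11a2 and Steap3, and 0.15 for Slc40a1. Tfrc, Ftl1, Ncoa4 and Fth1 were at ratios of 0.996, 1.09, 1.09 and 0.857. Their log2 ratios were −0.0053, 0.13, 0.13 and −0.22, against like-count medians of 0.071, 0.099, 0.071 and 0.099. Of these, Tfrc alone lay below its median. Tfr2, Ireb2 and Aco1 had log2 ratios of −0.47, −0.071 and 0.16. Each was smaller in size than its like-count median, of 0.69, 0.26 and 0.42. The summed neutrophil markers were 1.15 times, the monocyte markers 1.26 times and the macrophage markers 1.01 times as high in replicate 2 in TPM; their part in these ratios was not tested.

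The transcript rows of Tfrc show where its level sits. The full-length coding form Tfrc-201 (4890 bases, 19 exons) held 19.5 and 20.8 TPM, or 21.8% and 21.3% of the gene. The leading row was Tfrc-204, annotated as a retained intron, with 42.2 and 46.0 TPM, or 47.2% and 47.1%. The shares of both rows were nearly equal between the libraries. Tfrc-204 covers the last part of the gene: of its 3527 bases, 3201 are also exons of Tfrc-201, among them all 4 IRE-like loops, and 326 bases at chr16:32624442-32624767 are its own. Most reads on it could thus have come from either row.

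A second retained-intron row, Tfrc-205 (571 bases), held 17.4 and 22.4 TPM on only 547 and 995 counts. Its 198 own bases lie within an intron at chr16:32616899-32617096. Tfrc-206, also a retained intron, was at 3.13 and 4.52 TPM. Tfrc-202, a shorter coding form that ends before the IRE-like loops, was at 7.25 and 3.95 TPM, with deposited intervals of 6.21 to 8.32 and 3.21 to 4.69 that did not overlap. Tfrc-203 was at 0 in both.

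Retained-intron rows together held 70.1% and 74.7% of the Tfrc TPM, and 59.3% and 61.4% of its counts. A row of this type led the gene in both libraries in 10.1% of 1532 detected coding genes that have such a row. The median share on such rows in those genes was 12.4% and 12.3%, and 76 of them (4.96%) had a mean share above that of Tfrc. Rows with the last exon, Tfrc-201 and Tfrc-204, summed to 61.6 and 66.7 TPM. Rows from the first exon, Tfrc-201 and Tfrc-202, summed to 26.7 and 24.7, so the former were 2.31 and 2.70 times as high. Rows with IRE-like loops held 68.9% and 68.4% of the TPM and 91.4% and 93.0% of the counts. Total RNA also holds unspliced and broken transcripts, and their part in these rows was not tested.

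**Figure D2:**
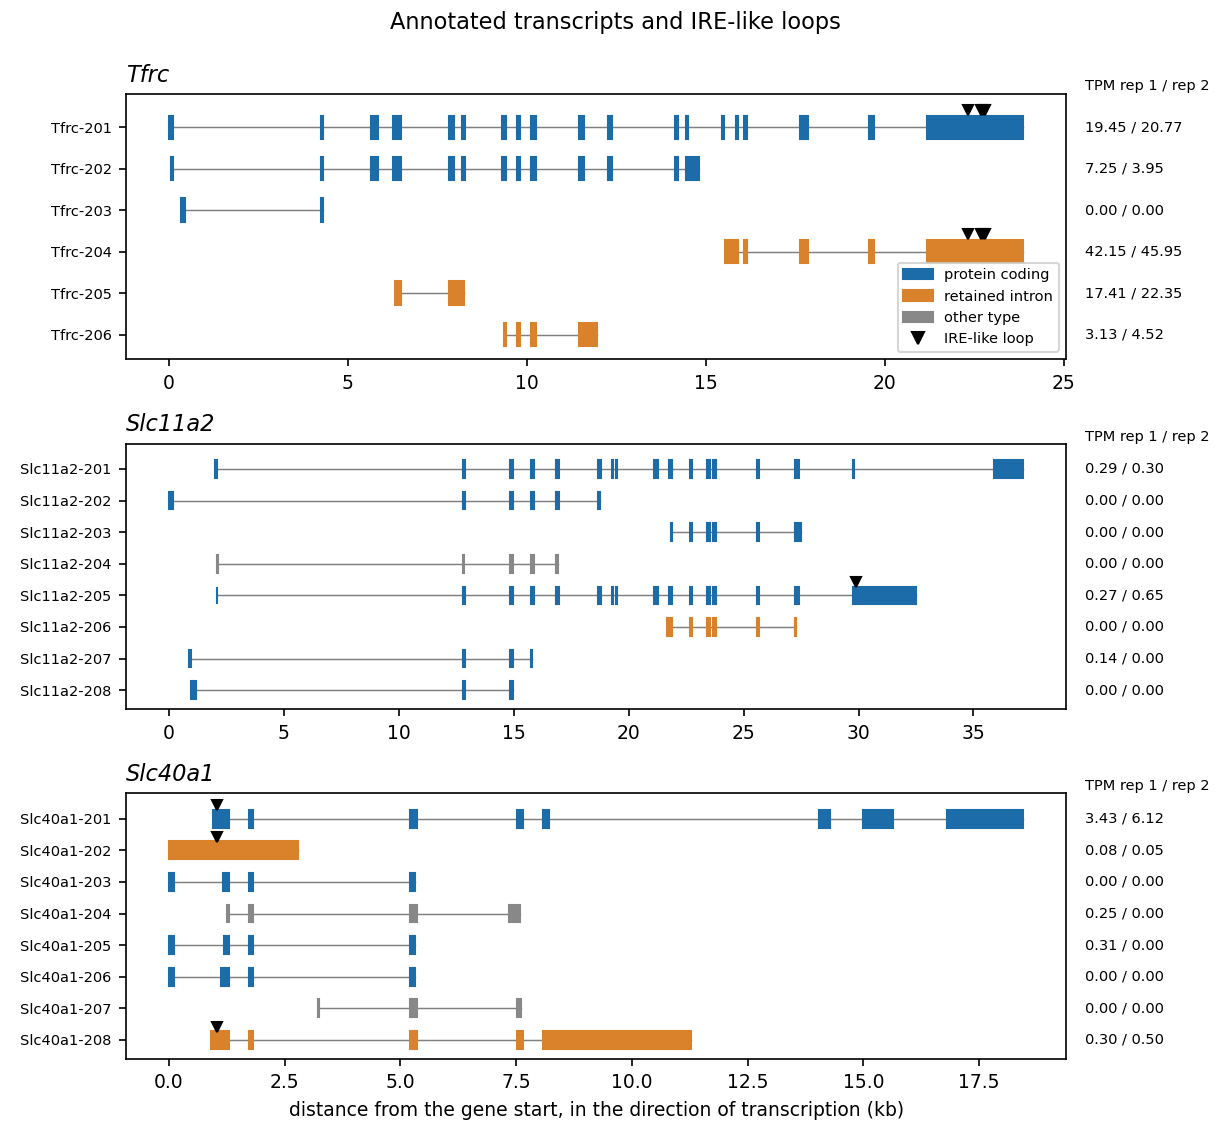
Exons (boxes) of the annotated transcripts of Tfrc, Slc11a2 and Slc40a1 that are in the deposited tables, drawn by distance from the gene start in kb, with TPM in replicates 1 and 2 at the right. Blue is protein coding, orange retained intron and grey another type, and triangles mark IRE-like loops, which overlap at this scale in Tfrc. In Tfrc the loops lie in the last exon of Tfrc-201 and Tfrc-204, in Slc11a2 in Slc11a2-205 alone, and in Slc40a1 near the start of 3 rows.

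Slc11a2 is known in forms with and without an IRE, which differ in the 3′ end of the mRNA and the C-terminus of the protein. Slc11a2-205 (4415 bases) carries the IRE-like loop in a last exon of which 2707 bases are absent from Slc11a2-201. It was at 0.27 TPM in replicate 1 and 0.65 in replicate 2, on 82.3 and 295 counts. Slc11a2-201 (3025 bases), the form without the loop, was at 0.29 and 0.30 TPM on 61.2 and 91.5 counts. The loop-bearing form was thus about level with the other in replicate 1 and above it in replicate 2. The deposited intervals, whose level is not given in the sources used here, ran from 0.205 to 0.326 and from 0.574 to 0.724 TPM for Slc11a2-205. For Slc11a2-201 they ran from 0.208 to 0.365 and from 0.237 to 0.362.

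As shares of the gene, the loop-bearing form held 38.6% and 68.4% of the TPM, or 56.4% and 76.3% of the counts. The difference in Slc11a2 between the libraries lay mainly on this row, by 213 more counts against 30.4 more on Slc11a2-201, before scaling for depth. Both forms begin in the same first exon region. Of the forms with other first exons, Slc11a2-207 had 2.50 counts in replicate 1 and 0 in replicate 2. Slc11a2-202 and Slc11a2-208 had 0 in both, with deposited upper bounds of 0.140 and 0.315 TPM in replicate 1. Those 2.50 counts on a row of 389 bases made up 20.0% of the gene's TPM in replicate 1. Slc11a2-203, Slc11a2-204 and Slc11a2-206 were also at 0. The start of Slc11a2 overlaps Gm5475 on the other strand, which was listed at 0.

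In Slc40a1, the coding form with the IRE-like loop, Slc40a1-201 (3370 bases), led at 3.43 and 6.12 TPM, or 78.5% and 91.8%. Retained-intron row Slc40a1-208, which also holds the loop, was at 0.30 and 0.50 TPM. Slc40a1-202, the other such row, was at 0.08 and 0.05. Erythroid cells are known to use also a ferroportin mRNA that starts upstream and skips the IRE. The 3 rows Slc40a1-203, Slc40a1-205 and Slc40a1-206 begin at an upstream first exon without the loop. Slc40a1-205 had 5.32 counts in replicate 1 and 0 in replicate 2. Slc40a1-203 and Slc40a1-206 had 0 in both, with deposited upper bounds of 0.191 and 0.158 TPM in replicate 1. The short non-coding Slc40a1-204 had 6.66 and 0 counts, and Slc40a1-207 had 0. Rows with the loop held 87.2% and 100% of the TPM, or 98.7% and 100% of the counts. The upstream rows held 7.09% of the TPM but 0.587% of the counts in replicate 1, and none in replicate 2. These upstream rows are only 408, 370 and 451 bases long and stop at chr1:45921217, before the later exons of Slc40a1-201. Reads from later exons of an upstream-start mRNA would thus fall on other rows. The shares therefore cannot tell ferroportin mRNA with the loop from mRNA without it. Whether the annotated upstream rows match that mRNA was not tested.

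Ftl1-201, the coding light-chain form with the loop, held 65.8% and 58.7% of its gene, at 45.3 and 49.7 TPM. A row of 604 bases whose identifier is not in M21 held 33.9% and 39.8%. In M21 only Ftl1-206, a retained intron without the loop, has that length, and the match is by length alone. Ncoa4-202 led Ncoa4 with 90.5% and 82.4%, and Ncoa4-206, annotated for nonsense-mediated decay, held 7.35% and 15.0%. The deposited intervals of Ncoa4-206 overlapped widely, from 0.142 to 5.87 and from 0.409 to 7.63 TPM. Steap3-203 held 94.6% and 100% of Steap3 and Aco1-201 held 64.3% and 100% of Aco1. Fth1, Tfr2 and Ireb2 had 1 row each.

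**Figure D3:**
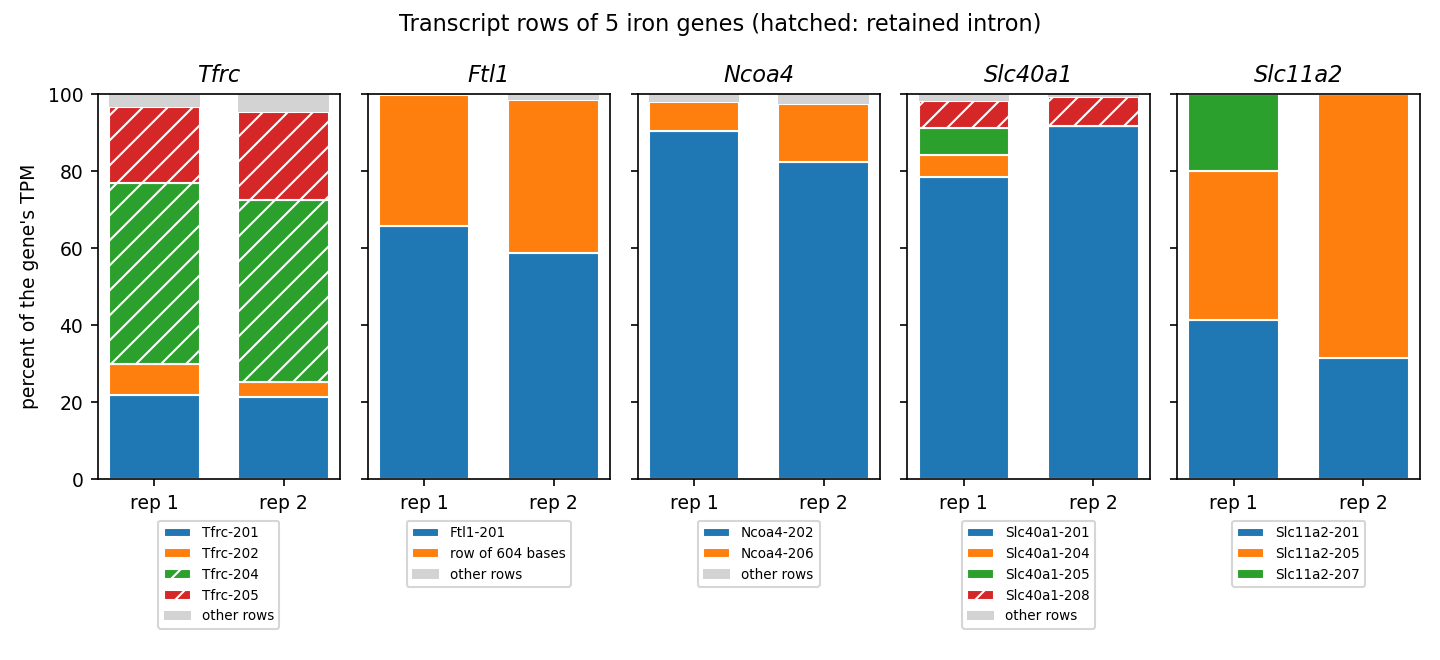
Percent of each gene's TPM on its transcript rows in replicates 1 and 2, for Tfrc, Ftl1, Ncoa4, Slc40a1 and Slc11a2. Hatching marks rows annotated as retained introns. Steap3 and Aco1, which also had several rows above 5% in replicate 1, are not drawn. Tfrc-204 holds 47.2% and 47.1% and Tfrc-201 21.8% and 21.3%, whereas Tfrc-202 stands at 8.11% and 4.05%, Tfrc-205 at 19.5% and 22.9%, and Slc11a2-205 at 38.6% and 68.4%.

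The ratio of Tfrc to ferritin was close in both libraries. Neutrophil-lineage markers were detected in the same RNA, and the part of such cells in this ratio and those below was not tested. Tfrc stood at 0.723 and 0.719 of the ferritin sum (Fth1 plus Ftl1), a log2 ratio of −0.47 ± 0.0047. The value depended on which rows and unit were used. With coding rows alone the log2 ratio was −1.97, and by expected counts, which favour the longer Tfrc mRNA, it was 1.54. Within ferritin, Fth1 stood at 0.796 and 0.604 of Ftl1 (log2 ratio −0.53 ± 0.28), and with coding rows alone the direction turned, to a log2 ratio of 0.16. That turn rests on the untyped Ftl1 rows left out, and in replicate 2 Fth1 was then only 1.03 times Ftl1, with overlapping deposited intervals (48.9 to 52.1 and 46.9 to 50.7 TPM).

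Ncoa4, the ferritinophagy receptor, stood at 0.218 and 0.230 of the ferritin sum, a log2 ratio of −2.16 ± 0.055. It was −1.96 with coding rows and 0.31 by expected counts. Of the uptake genes, Tfrc alone lay above the exporter, at 20.5 and 14.6 times Slc40a1 (log2 ratio 4.11 ± 0.34), and at a log2 ratio of 2.42 with coding rows. Slc11a2, Steap3 and Tfr2 all lay below Slc40a1, at mean TPM of 0.825, 0.445 and 0.365 against 5.52. Of the regulators, Ireb2 was 1.69 and 2.06 times Aco1 (log2 ratio 0.90 ± 0.20). It stayed above Aco1 under each alternative unit and pseudocount tried, at log2 ratios from 0.31 to 1.80. The deposited intervals of Ireb2 and Aco1 overlapped in replicate 1 (0.623 to 0.785 and 0.348 to 0.711 TPM). In replicate 2 they did not (0.647 to 0.781 and 0.323 to 0.524).

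**Figure D4:**
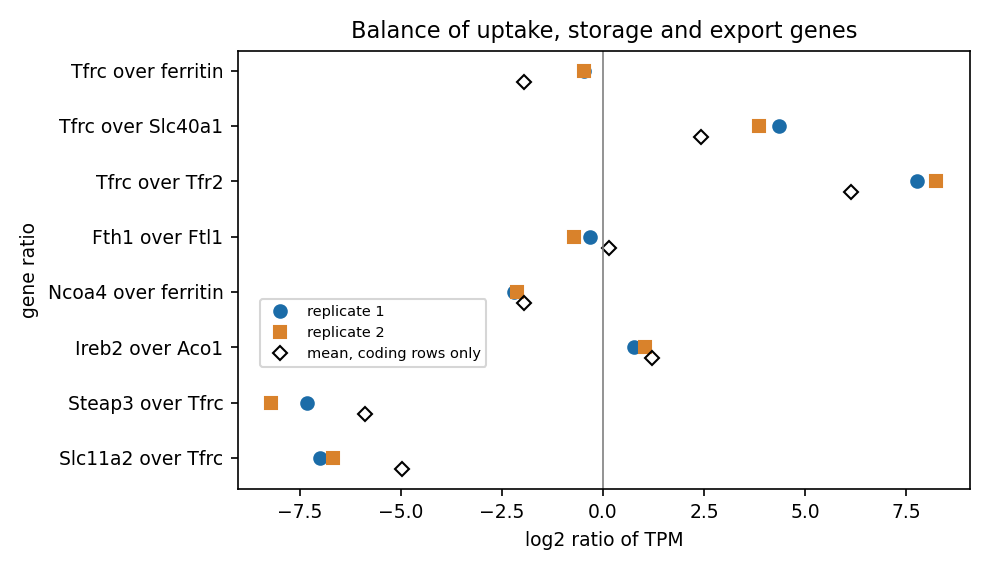
Log2 ratios of TPM between genes within each library, with replicate 1 as circles, replicate 2 as squares and open diamonds for the mean over coding rows only; 0 marks equal levels, and ferritin is Fth1 plus Ftl1. Tfrc lies below ferritin at −0.47 and far above Slc40a1 and Tfr2, and the diamond for Fth1 over Ftl1 lies on the other side of 0.

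Other genes of the pathway were counted by list, beside the 14.5% of coding genes detected and the median TPM over all coding genes of 0.03 and 0.02. In the transferrin cycle, 7 of 15 genes were detected. Beyond Tfrc these were Picalm, a clathrin adaptor (12.8 and 14.7 TPM), Snx3, a sorting nexin that recycles the receptor (5.54 and 6.98), and Vps35, of the retromer (2.68 and 3.91). Dnm2, a dynamin that pinches off vesicles, Exoc6, an exocyst subunit, and Mcoln1, a lysosomal cation channel, ranged from 1.11 to 2.17 TPM. Hfe, which binds the receptor, was at 0.24 and 1.10 TPM. The other STEAP reductases were nearly empty: Steap1 and Steap2 had 0 counts in both libraries, Steap4 had 0 and 3, and the reductase gene Cybrd1 had 0. Steap3 was thus the one with most counts of its family.

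Of 5 other importers none was detected. Lrp1, a haem-haemopexin receptor, was at 0.67 and 0.62 TPM, Slc39a8 at 0.60 and 0.44, Cd163, the macrophage haptoglobin-haemoglobin receptor, at 0.51 and 0.21, and Slc39a14 at 0 and 0.12. Hpx, haemopexin itself, had 0 counts.

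In ferritin and its turnover, 7 of 11 were detected. Tax1bp1, an autophagy adaptor that acts with NCOA4, was at 11.4 and 11.2 TPM, and Atg9a, a membrane protein of autophagosome formation, at 5.12 and 6.83. The iron chaperone genes Pcbp1 and Pcbp2, which load ferritin, were at 3.99 and 4.59 and at 5.88 and 7.08. Herc2, a ligase that turns over NCOA4, was at 0.73 in both, Atg5 at 0.66 and 0.59, and Atg7 at 0.51 and 1.75. Ftmt, mitochondrial ferritin, had 0 counts.

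Among regulators of the IRPs and of Tfrc mRNA decay, 4 of 8 were detected. The ubiquitin ligase parts Skp1a and Cul1 were at 3.85 and 4.96 and at 3.42 and 6.31 TPM, and Fbxl5, the iron-sensing subunit that marks IRP2 for destruction, at 1.35 and 0.82. Rc3h1 and Rc3h2, the Roquin proteins that bind hairpins in mRNA 3′ ends, were at 2.10 and 2.35 and at 1.56 and 1.21. Zc3h12a, the endonuclease Regnase-1, was at 0.07 and 0.09.

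Of 7 genes of export and its hormones, Slc40a1 alone was detected. Both ferroxidases were low, with Heph at 0 and 13 counts and Cp at 14 and 7. Erfe, encoding the erythroid hormone erythroferrone, was at 0.02 and 0.14 TPM on 3.04 and 12 counts. Tmprss6 had 7 and 0 counts, and Hamp (hepcidin) and Hjv had 0.

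At the mitochondrial end, 3 of 5 were detected. Slc25a37, mitoferrin 1, which imports iron in erythroid cells, was at 173 and 176 TPM (174 ± 2.27), above every one of the 10 genes. Its partner Abcb10 was at 16.9 and 16.8. Slc25a28, mitoferrin 2, was at 0.27 and 0.16.

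Grouped by where an IRE is known, 4 of 6 genes with a 5′ UTR element were detected, at a median of 29.6 and 28.9 TPM. The highest was Alas2, the first enzyme of erythroid haem synthesis, at 175 and 183 TPM, above both ferritin chains. Epas1 was at 0.02 and 0.04 TPM. With a 3′ UTR element, Tfrc was the only gene of 5 detected, and the median was 0.75 and 0.68 TPM. Cdc14a was at 0.77 and 0.68, Cdc42bpa at 0.75 and 0.36, and Pfn2 at 0 and 0.26.

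**Figure D5:**
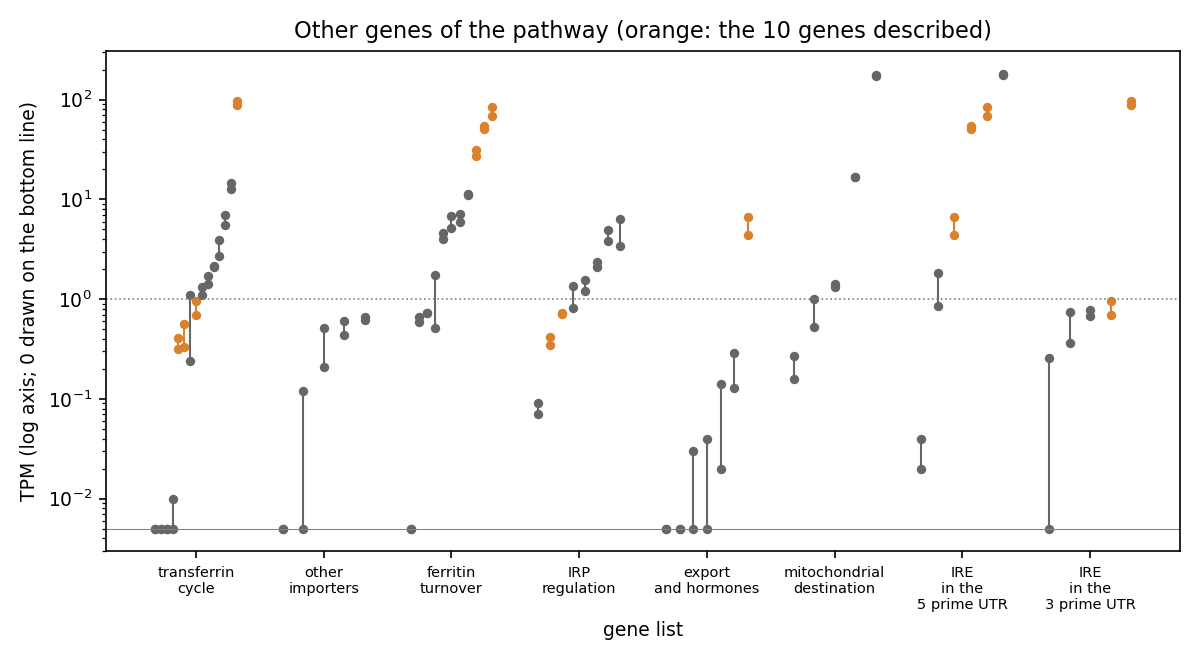
TPM of each gene of the pathway lists on a log axis, with the values of replicates 1 and 2 joined by a line, the 10 genes in orange and a dotted line at 1; values of 0 are drawn on the bottom line. An orange point is the highest in 4 of the 8 lists, Alas2 at 175 and 183 lies above the orange points of the 5′ UTR list, and both orange points of the IRP list lie below 1.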

How the data were processed

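Total RNA of 2 erythroblast libraries was quantified by the authors per gene and per transcript on mm10 with GENCODE M4, per the deposited read-me. For the aligner and quantifier, names and versions were not given in the sources used here, and the columns match RSEM output. The deposited expected counts share out reads that match several rows, which leaves the split between overlapping transcripts uncertain. The deposited TPM is scaled over all rows, and the deposited FPKM served as an alternative unit. The posterior mean and interval bounds of TPM, deposited by the authors, were treated as a score. The deposited percent of a gene's TPM per transcript was set beside shares computed from TPM.

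Rows were matched by Ensembl identifier without version to GENCODE M21, which gave symbols, exons, transcript types and sequences; its gene models can differ from M4. The 10 genes and the lists were chosen with earlier results of these data known. Named were all 10 genes, their transcripts with at least 10% of the gene, all transcripts of Tfrc, Slc11a2 and Slc40a1, and the genes of the pathway lists, some of which are not reported here. Detection meant a TPM of at least 1 in both libraries. Rounded counts were scaled with edgeR 4.0.16 (TMM, prior count 2, genes kept by filterByExpr) and, as an alternative, DESeq2 1.42.0; R was 4.3.3 and Python 3.11.15. The scaling and the motif search were tested on simulated data. A count of 0 allows up to 3 counts where a row shares no reads with others. For overlapping transcripts a 0 is an allocation of shared reads, and this bound does not hold. Reads carried no stated molecular identifiers, so the bound of 3 covers counting error only. No p-value was computed, since the design has 1 group.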

Additional observations from a re-analysis of the deposited data

How the results depend on the processing

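Of 229 alternative values for 52 results, 170 stayed within the spread between the libraries or within 1.5 times of a count. Another 49 moved further and 10 changed sign. The cause was not tested unless named. Some alternatives could not move by construction. With either library left out, a level, share or ratio always lies within the SD. FPKM ratios within a library equal those of TPM apart from rounding, and coding-row levels of genes with only coding rows stay the same. The tally therefore overstates how far the results held. The order of the 10 genes was the same by posterior mean. It was also the same by FPKM and rescaled TPM, but these cannot change the order within a library. With coding rows only, Tfrc lay below Fth1 and Ftl1. Leaving out either library gives the values of the other, printed in the report. With 10 counts as the rule or with rescaled TPM, 10 genes counted as detected, not 5, where 42.8% and 42.9% of coding genes passed. The 10-count rule gave 11 in the transferrin cycle, 3 other importers, 8 in the IRP list, 5 mitochondrial and 4 with a 3′ UTR IRE. By expected counts, which keep transcript length in, the log2 ratio of Tfrc to ferritin was 1.54, Ncoa4 to ferritin 0.31, Ireb2 to Aco1 1.80, Steap3 to Tfrc −6.95 and Slc11a2 to Tfrc −6.61. With coding rows only, an alternative added after seeing the data, Tfrc to ferritin was −1.97, to Slc40a1 2.42 and to Tfr2 6.15, Fth1 to Ftl1 0.16 (untyped Ftl1 rows left out), Ncoa4 to ferritin −1.96, Ireb2 to Aco1 1.22, Steap3 to Tfrc −5.90 and Slc11a2 to Tfrc −4.98. Adding near copies gave −0.51 for Tfrc to ferritin. The posterior mean gave −0.47 there, 0.59 for Ireb2 to Aco1 and −6.43 for Slc11a2 to Tfrc. A pseudocount of 1 gave 6.11 for Tfrc to Tfr2, 0.31 for Ireb2 to Aco1, −6.03 for Steap3 and −5.70 for Slc11a2 to Tfrc, and 0.1 gave 7.66 for Tfrc to Tfr2. Shares by counts were 60.3% for Tfrc retained-intron rows, 92.2% for its rows with loops, 36.0% for Tfrc-201 and 74.4% for Ftl1-201. Over coding rows, Tfrc-201 held 78.4% and so did the rows with loops, and Ftl1-201 held 100% by construction, since the other Ftl1 rows have no type in M21. The posterior mean put Slc11a2-201 at 27.5%. The log2 ratio of the libraries for Tfrc, −0.01 by TMM, was 0.033 with DESeq2 size factors, 0.11 by totals, 0.13 by TPM and 0.036 without the filter. For Ireb2 it was 0.040 by totals and 0.018 by TPM, and for Aco1 −0.21 by TPM. By TPM, 2 genes instead of 3 were over 1.5 times apart. The median of all kept genes lay at 0.00 by TMM, 0.04 by size factors, 0.11 by totals and 0.09 by TPM. No paired analysis was possible because there is 1 group. Depth limits the 5 lowest genes (77 to 432 counts), whose transcript rows rest on as few as 2.50 counts.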
